A study of Homo sapiens with 42 samples.

Results

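The genes of mitosis and the kinetochore described here are 54 of the 28266 gene symbols with a row in the count table. They were chosen by what their products do in dividing cells, with earlier results of these data known. All 12 groups of the study were followed. Shares of members set beside those of all genes therefore describe this choice and are no independent support. The members comprise mitotic kinases and cyclins, the chromosomal passenger complex, the spindle checkpoint, kinetochore proteins, spindle motors, cytokinesis factors and condensins. The data are 42 RNA-seq libraries, made from polyadenylated RNA of fibroblasts of the human lung. IMR90 is an established fibroblast strain, and IMR90 ER:RAS expresses a RAS oncogene fused to an oestrogen receptor domain, which 4-hydroxytamoxifen (4OHT) activates to give oncogene-induced senescence (OIS). ER:RAS cells received DMSO or 100 nM 4OHT (3 libraries per group), and IMR90 cells received DMSO or bleomycin, a DNA-damaging agent, at 50 µg/ml for 24 h (4 libraries per group). After a further 7 days, doxycycline at 1 µg/ml induced a control shRNA, COPB2 shRNA 1 or COPB2 shRNA 2 for 72 h, and cells were collected at day 10. All 12 groups therefore carried an shRNA and were exposed to doxycycline, and the RAS fusion was present in the DMSO groups of the ER:RAS line as well as in its 4OHT groups. Each senescence model was made in a single cell line, so that model and line cannot be told apart.

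Entry into mitosis is driven by CDK1 bound to B-type cyclins, and the transcription factors FOXM1 and MYBL2 raise most of the genes needed for it in G2 phase. Polo-like and Aurora kinases then build the spindle, kinetochores attach chromosomes to its microtubules, and the spindle checkpoint holds back the anaphase-promoting complex until every kinetochore is attached. In cells that have left the cycle the DREAM complex holds many of these genes silent through a promoter element called the cell cycle genes homology region (CHR), and a stable arrest with low levels of proliferation genes is a defining feature of senescence. COPB2 belongs to the coatomer, the coat of COPI vesicles that carry cargo between the Golgi apparatus and the endoplasmic reticulum.

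Promoter sequence was examined because the members share this mode of control as background knowledge and moved together in the data. Of the 54 members, 44 had an entry among RefSeq promoters (GRCh38.p14, 250 bases before to 50 bases after the start of the gene). A CHR, read as TTTGAA or TTCGAA on either strand, was found in 31 of the 44 (70.5%) against 16.6% of 27305 promoters, and a CCAAT box on either strand in 31 (70.5%) against 35.7%. At least 2 CCAAT boxes were found in 20 members (45.5%, against 11.3%), and a CHR together with a CCAAT box in 23 (52.3%, against 6.58%). A strict E2F motif, TTCCCGCC or TTTCCCGC, was found in 2 members (4.55%, against 3.99%). CHR and CCAAT letters can overlap by a few bases on opposite strands, and a match describes letters only. Other members named below lack these letters: MYBL2 and KIF2C held neither element, and KIF20A, CCNB1 and CCNA2 held a CCAAT box without a CHR. The 120 bases upstream of the start are printed for selected members that hold both elements. They are written 5′ to 3′ on the strand of the gene, with CHR and CCAAT matches on either strand in capitals.
CCNB2 (chr15:59105026-59105145, plus strand): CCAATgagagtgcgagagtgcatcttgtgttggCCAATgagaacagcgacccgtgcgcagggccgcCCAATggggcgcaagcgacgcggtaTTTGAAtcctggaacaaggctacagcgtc
PLK1 (chr16:23678769-23678888, plus strand): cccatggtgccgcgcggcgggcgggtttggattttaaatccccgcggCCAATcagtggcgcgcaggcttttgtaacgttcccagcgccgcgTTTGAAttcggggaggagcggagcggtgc
CDC20 (chr1:43358861-43358980, plus strand): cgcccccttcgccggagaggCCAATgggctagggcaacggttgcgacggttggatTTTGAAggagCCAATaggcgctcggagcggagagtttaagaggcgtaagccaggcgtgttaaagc
MKI67 (chr10:128126424-128126543, minus strand): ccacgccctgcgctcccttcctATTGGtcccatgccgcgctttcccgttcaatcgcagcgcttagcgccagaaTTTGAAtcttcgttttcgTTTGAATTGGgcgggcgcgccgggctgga
KIF4A (chrX:70289984-70290103, plus strand): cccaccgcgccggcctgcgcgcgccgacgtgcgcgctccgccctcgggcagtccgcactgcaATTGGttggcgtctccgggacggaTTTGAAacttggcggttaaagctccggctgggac
PRC1 (chr15:90994536-90994655, minus strand): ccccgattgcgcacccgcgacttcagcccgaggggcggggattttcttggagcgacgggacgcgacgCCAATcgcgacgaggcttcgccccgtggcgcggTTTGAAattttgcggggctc
ESPL1 (chr12:53268179-53268298, plus strand): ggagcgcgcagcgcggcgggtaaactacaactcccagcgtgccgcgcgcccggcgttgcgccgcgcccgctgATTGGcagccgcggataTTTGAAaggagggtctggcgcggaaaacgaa
INCENP (chr11:62123891-62124010, plus strand): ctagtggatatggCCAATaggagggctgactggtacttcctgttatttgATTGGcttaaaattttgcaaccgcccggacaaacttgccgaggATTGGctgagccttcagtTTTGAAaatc
CCNB2 and CDC20 were shown as promoters with several CCAAT boxes and a CHR, MKI67 for its pair of CHR matches, and PLK1, KIF4A and PRC1 as kinase and spindle genes with one of each. ESPL1 and INCENP hold the same letters although ESPL1 rose and INCENP was not called in OIS. Of the 31 matched members that fell in OIS, 21 held a CHR and 15 held both elements, and of the 12 that were not called 9 held a CHR and 7 both.

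The 2 guides against COPB2 are shown with bases 2 to 8, the seed, in capitals.
COPB2.1: tTAAATATctttacaatgctgt
COPB2.2: tAATTGAAcactctaatctgca
Each matched 22 coding bases of COPB2 without a mismatch, the first at chr3:139088345-139088366 in exon 11 and the second at chr3:139097987-139098008 in exon 4 (GRCh37, minus strand). They were assigned to shRNA 1 and shRNA 2 by their number alone.

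Levels are given as CPM, read counts scaled to library size by TMM. Total counts ran from 13148194 to 23597310 per library, and 3 counts, the floor used below, stood for 0.113 to 0.265 CPM. COPB2 itself lay between 262 and 629 CPM in all 14 control shRNA libraries, and between 32.996 and 123 CPM in the 28 with a shRNA against it. All 9 fibroblast markers were present (summed level 10495 to 30475 CPM), though S100A4 was low at 2.17 to 13.5 CPM and LUM ran from 3.39 to 357 CPM. The 8 markers of other cell types summed to 42.2 to 153 CPM. CD68 (12.6 to 118 CPM) and KRT8 (12.4 to 58.8 CPM) carried this sum, with ALB at 0 to 0.254 CPM and CDH1 at 0 to 0.895 CPM. Libraries of 1 group differed in a way that followed GC content. Among the DMSO control libraries of ER:RAS cells, the 17 members with under 40% GC had a median deviation from the group mean of 0.24, -1.53 and 1.25 on the log2 scale in replicates 1, 2 and 3, while the 13 members over 50% GC stayed at -0.11, 0.18 and -0.09. Across the 54 members the correlation of deviation with GC content was -0.49, 0.79 and -0.80 in these libraries, as a description over genes that share each library. The same correlation was 0.76, -0.58, -0.74 and -0.31 in the 4 DMSO control libraries of IMR90 cells.

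**Figure D1:**
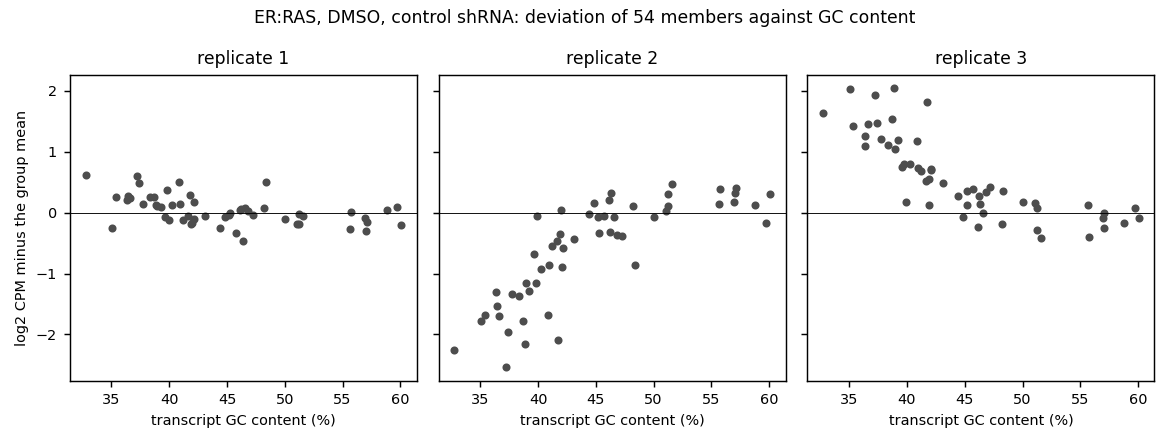
Deviation of each of the 54 members from its group mean (vertical axis, log2 scale) against the GC content of its transcript (horizontal axis, percent), with a panel for each of the 3 control shRNA libraries of ER:RAS cells with DMSO. Points under 40% GC lie low in ER:RAS replicate 2 (median -1.53) and high in replicate 3 (median 1.25), while points over 50% GC lie near 0 in both.

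Member genes differed in how far this reached them. SMC2, a condensin subunit with a GC-poor transcript, was at 11.6, 2.06 and 23.2 CPM in the 3 DMSO control libraries of ER:RAS cells, and CDK1 at 4.58, 1.12 and 10.48 CPM. TPX2, a spindle assembly factor, was at 25.6, 23.2 and 24.3 CPM in the same libraries. BUB1B, PRC1 and NUSAP1 share exonic bases with another gene on the same strand, so that their reads may be mixed. For 11 members such bases are shared with a gene on the opposite strand. The libraries were directional, so this would mix reads only if counting ignored the strand. The fits below do not correct for GC content. How much of any difference it carries was not tested, and each count of calls was also taken with a GC and length correction chosen after the data were seen.

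**Figure D2:**
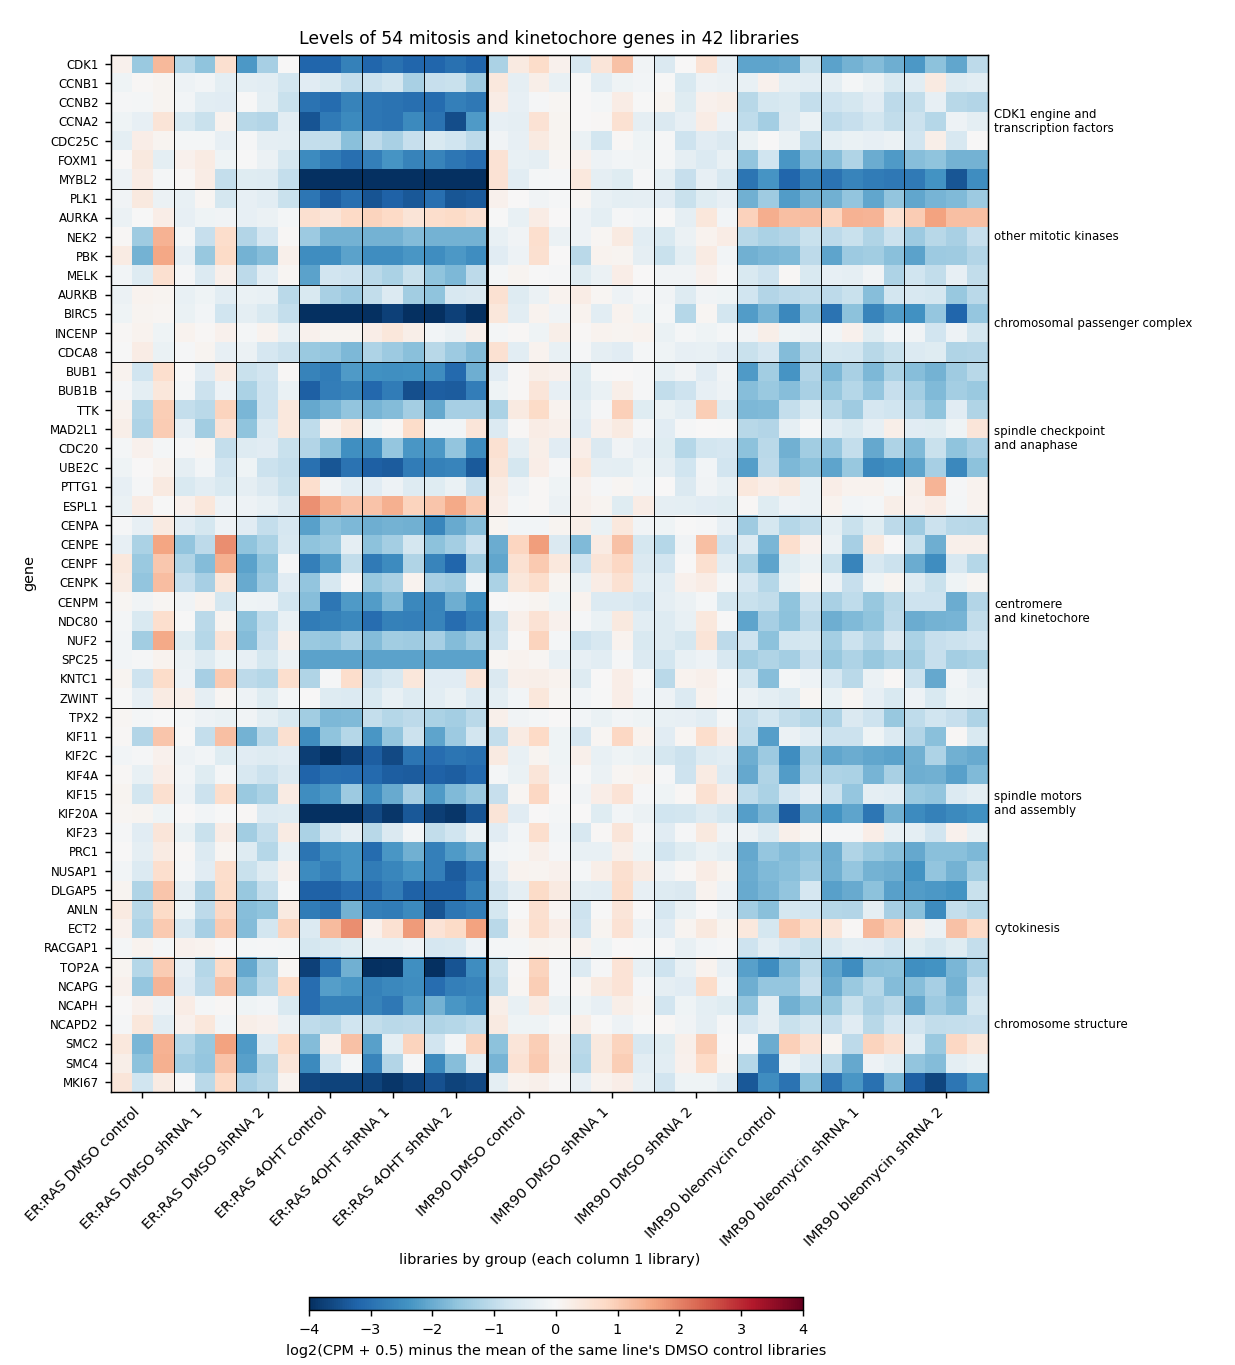
Level of each of the 54 members (rows, grouped by role) in each of the 42 libraries (columns, grouped by line, treatment and shRNA), as the log2 of CPM plus a small constant minus the mean of the control shRNA libraries with DMSO of the same line. Blue cells are lower and red cells higher. The 4OHT and bleomycin columns are blue for most rows, with AURKA red in both and ESPL1 red in the 4OHT columns.

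OIS lowered most of these genes. With the control shRNA, 39 of the 54 members were called lower in 4OHT against DMSO (adjusted p under 0.05 in the edgeR quasi-likelihood fit), 2 were called higher and 13 were not called, where 20.2% of the 14297 genes tested were called lower and 15.5% higher. The median log2 fold change of the members was -3.10, against -0.08 over all genes. In 13 members every 4OHT library had at most 3 counts, so that their fold change is a bound, and with these members at their bound the median was -2.99. The summed level of the 54 members was 550 ± 117 CPM with DMSO and 231 ± 38.5 CPM with 4OHT (SD, n = 3 each). In 38 members all 4OHT libraries lay under all DMSO libraries, which held for 21.1% of all genes tested. In bulk RNA, fewer dividing cells and less RNA per dividing cell cannot be told apart. The labels do not say whether replicates were separate cultures, so p-values measure the spread between these libraries.

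All 7 members of the CDK1 engine and its transcription factors fell (median log2 fold change -3.63). MYBL2 (chromosome 20, 42295659 to 42345135, 14 exons), a subunit of the activating MuvB complex, was at 10.497, 15.01 and 11.4 CPM with DMSO and at 0, 0.200 and 0 CPM with 4OHT. These 4OHT libraries held 0, 3 and 0 reads of MYBL2, and its log2 fold change was at least 5.81 below DMSO (bound -5.81, adjusted p 1.30e-06). FOXM1, which shares control of G2 genes, was at 16.1, 20.9 and 12.1 CPM and then at 2.38, 1.87 and 1.54 CPM (log2 fold change -3.17, SE 0.28, adjusted p 5.22e-07). CDK1 had no read in 2 of the 3 libraries with 4OHT. CCNB1, the main cyclin of mitotic entry, fell least. It was at 20.7, 24.2 and 25.5 CPM with DMSO and 17.03, 14.99 and 11.8 CPM with 4OHT, without overlap (log2 fold change -0.78, SE 0.21, adjusted p 0.00908). CCNB2, the other B-type cyclin, fell from 8.59, 8.41 and 9.69 CPM to 0.706, 0.600 and 0.964 CPM (log2 fold change -3.63, SE 0.30, adjusted p 2.51e-07). The call for CCNB1 was lost without DMSO replicate 3 (adjusted p 0.0630), 4OHT replicate 2 (0.0543) or 4OHT replicate 3 (0.0736).

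Among the other mitotic kinases 4 of 5 fell and AURKA rose (median -3.80). PLK1 (chromosome 16, 23688977 to 23701688), the polo-like kinase needed for spindle poles and cytokinesis, was at 9.31, 13.8 and 8.66 CPM with DMSO and 0.970, 0.600 and 0.835 CPM with 4OHT (log2 fold change -3.80, SE 0.33, adjusted p 3.31e-07). PBK and NEK2 had at most 2 reads in each 4OHT library and fell by at least 4.07 and 3.18 on the log2 scale, bounds that do not rank them. AURKA (chromosome 20, 54944445 to 54967393), the Aurora kinase of spindle poles, moved the other way. It was at 13.8, 16.2 and 20.02 CPM with DMSO and 25.8, 23.4 and 28.8 CPM with 4OHT, all 4OHT libraries above all DMSO libraries (log2 fold change 0.55, SE 0.19, adjusted p 0.0380). Without DMSO replicate 1 or 2 or 4OHT replicate 3 the adjusted p of AURKA was 0.123, 0.0617 and 0.0759. MELK, called lower at -1.42 (adjusted p 0.0299), lost its call without DMSO replicate 3 (0.164) or 4OHT replicate 1 (0.106).

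The chromosomal passenger complex, which corrects wrong attachments, split between its subunits (3 of 4 lower, median -1.65). BIRC5 (survivin) was at 15.9, 19.5 and 19.03 CPM with DMSO and 0.529, 0.267 and 0.193 CPM with 4OHT (log2 fold change -5.89, SE 0.43, adjusted p 6.19e-08). Its scaffold INCENP stayed at 12.8, 13.6 and 11.1 CPM against 14.1, 13.6 and 13.4 CPM (log2 fold change 0.04, SE 0.20, adjusted p 0.897). The groups of INCENP overlapped. AURKB, the kinase of the complex, fell from 4.37, 5.79 and 5.75 CPM to 3.26, 1.87 and 1.61 CPM (log2 fold change -1.34, SE 0.38, adjusted p 0.0119). Its call was lost without 4OHT replicate 2 (adjusted p 0.0714) or 4OHT replicate 3 (0.0656).

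Of 8 members of the spindle checkpoint and anaphase machinery, 5 fell and ESPL1 rose (median -2.89). ESPL1 (chromosome 12, 53662083 to 53687422, 31 exons) encodes separase, the protease that cleaves cohesin at anaphase. It was at 2.78, 4.36 and 3.44 CPM with DMSO and at 13.5, 10.1 and 8.29 CPM with 4OHT, every 4OHT library above every DMSO library (log2 fold change 1.495, SE 0.27, adjusted p 0.000407). PTTG1, its inhibitor securin, was at 9.98, 12.1 and 16.5 CPM and then 20.6, 11.3 and 9.25 CPM, with overlap (log2 fold change -0.02, SE 0.29, adjusted p 0.977). PTTG1 has near-identical copies in the genome that could share its reads, and its values are uncertain. TTK, the kinase that starts checkpoint signalling, fell by at least 3.16 on the log2 scale, a call that was lost without DMSO replicate 3 (adjusted p 0.0663), 4OHT replicate 1 (0.0565) or 4OHT replicate 2 (0.0620). CDC20, the activator of the anaphase-promoting complex, fell from 13.7, 16.6 and 13.7 CPM to 6.26, 4.20 and 2.25 CPM (log2 fold change -1.89, SE 0.40, adjusted p 0.00153).

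At the centromere and kinetochore 5 of 10 members fell (median -2.81). SPC25, a subunit of the NDC80 complex that binds microtubules, was at 1.54, 1.62 and 1.92 CPM with DMSO and had no read in any of the 3 libraries with 4OHT, which places its fall at at least 2.95 on the log2 scale. KNTC1, which brings dynein to kinetochores, had the smallest difference (-0.21, SE 0.79, adjusted p 0.874). CENPE, CENPF, CENPK, KNTC1 and ZWINT were the members not called. CENPF, a large outer kinetochore protein, was at 6.28, 1.31 and 10.1 CPM with DMSO and 0.265, 0.600 and 2.06 CPM with 4OHT. Its DMSO libraries spread widely, the groups overlapped and the log2 fold change of -2.65 (SE 1.22) had an adjusted p of 0.106. NUF2, called lower by at least 3.02 (adjusted p 0.0300), was the member called lower whose groups overlapped. The call of NUF2 was lost without DMSO replicate 3 (0.223) or 4OHT replicate 1, 2 or 3 (0.0819, 0.102 and 0.0552).

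Spindle motors and assembly factors fell in 8 of 10 members (median -3.51), cytokinesis factors in 2 of 3 (median -0.70) and chromosome structure genes in 5 of 7 (median -3.22). DLGAP5, a microtubule binder, had at most 1 read in each 4OHT library and fell by at least 4.58 on the log2 scale. KIF20A, a kinesin of the central spindle, was at 12.3, 12.6 and 10.2 CPM with DMSO and 0.176, 0.200 and 0.128 CPM with 4OHT, at most 3 reads per library (at least 5.74 lower, adjusted p 1.52e-08). KIF23 was the member with the smallest difference there (-0.95, SE 0.52, adjusted p 0.174). MKI67, the coat protein of mitotic chromosomes used as a proliferation marker, was at 9.73, 3.74 and 8.80 CPM and then at 0.0882, 0.0666 and 0.0642 CPM, 1 read per library (at least 5.08 lower). Condensin subunits differed: NCAPH fell by at least 4.06, while SMC2 stood at -0.30 (SE 1.13, adjusted p 0.876) with overlapping groups. ANLN fell by 3.03 (SE 0.72) and RACGAP1 by 0.70 (SE 0.20) on the log2 scale, and ECT2, which activates RHOA at the cleavage furrow, was not called at 0.82 (SE 0.85). The calls of RACGAP1 (adjusted p 0.0121) and KIF15 (0.0162) were lost in single omissions: for RACGAP1 without DMSO replicate 2 (0.0532) or 4OHT replicate 2 (0.0576), and for KIF15 without DMSO replicate 3 (0.0515) or 4OHT replicate 1 or 2 (0.0537 and 0.0689).

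**Figure D3:**
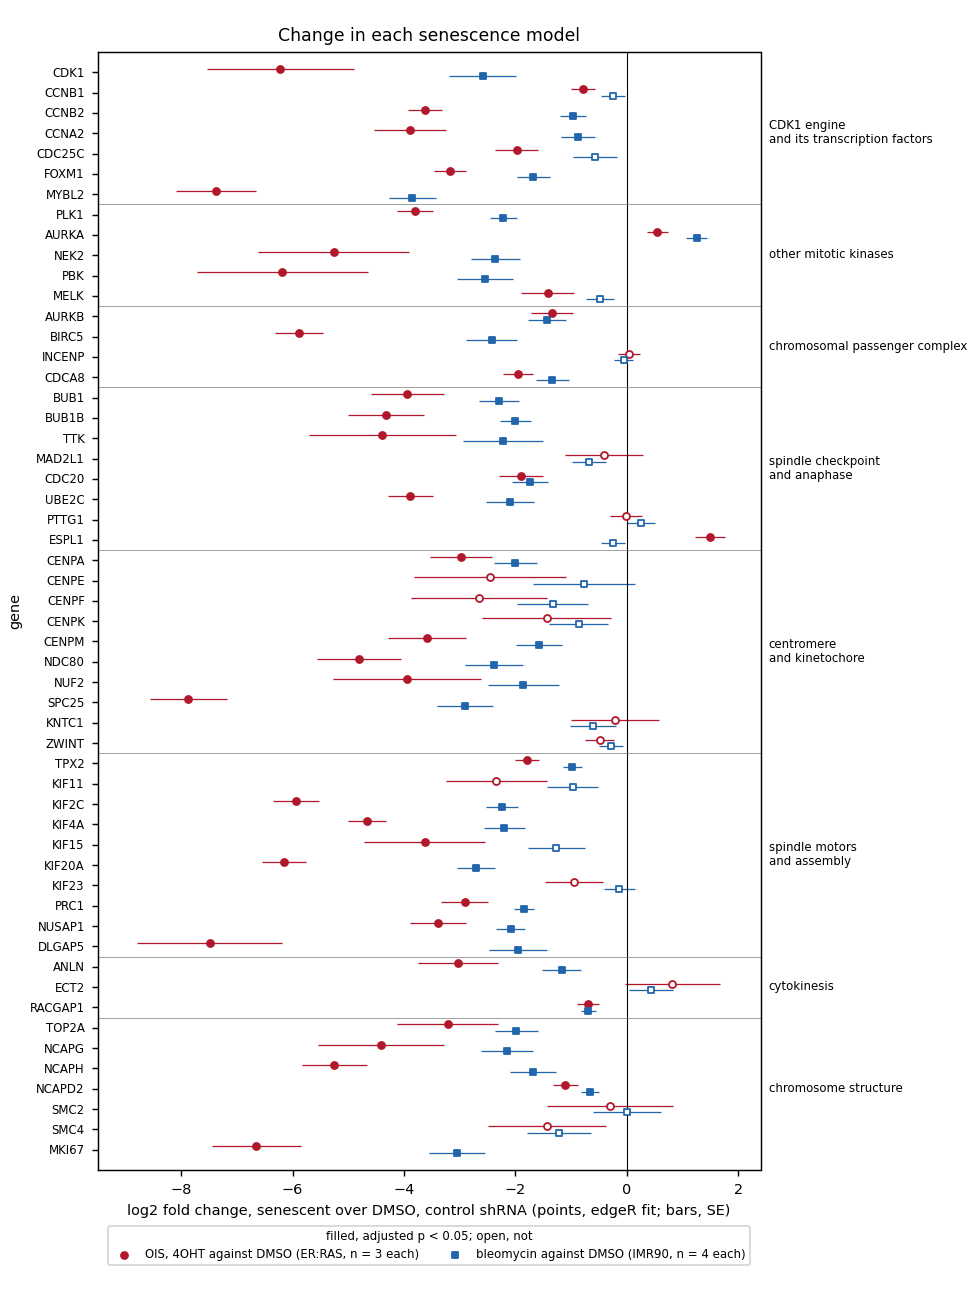
Fitted log2 fold change of each of the 54 members (horizontal axis, bars are SE) in OIS (red circles, n = 3 per group) and in bleomycin-induced senescence (blue squares, n = 4 per group), both with the control shRNA. Filled symbols have an adjusted p under 0.05. The 13 red points with at most 3 reads in every 4OHT library are fitted values. Their bounds are given in the text, except for CDK1, NDC80 and KIF2C. Most red points lie left of the blue ones, and AURKA and ESPL1 stand right of 0 in OIS.

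Bleomycin-induced senescence lowered the members as well, by less. With the control shRNA, 35 members were called lower, AURKA was called higher and 18 were not called, where 15.8% of 14783 genes tested were called lower and 15.4% higher. The median was -1.50, against -0.01 over all genes, and no member was at the floor throughout. The summed level was 428 ± 68.9 CPM with DMSO and 248 ± 28.8 CPM with bleomycin (SD, n = 4 each). In 28 members the groups did not overlap, lower with bleomycin, against 14.6% of all genes.

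Of the CDK1 engine 5 of 7 members fell (median -0.96). MYBL2 was at 8.31, 3.95, 5.13 and 5.23 CPM with DMSO and 0.282, 0.656, 0.161 and 0.452 CPM with bleomycin (log2 fold change -3.85, SE 0.42, adjusted p 5.78e-07). CCNB1 was at 18.7, 10.7, 16.3 and 11.2 CPM and then 11.1, 15.5, 10.4 and 10.1 CPM, with overlap (log2 fold change -0.25, SE 0.21, adjusted p 0.411). As in OIS, its difference was the smallest of this group. PLK1 fell from 6.20, 5.45, 4.93 and 5.29 CPM to 1.08, 1.73, 0.751 and 1.10 CPM (log2 fold change -2.21, SE 0.24, adjusted p 5.78e-07), and PBK fell most among the kinases (-2.55, SE 0.50, adjusted p 0.000488). AURKA rose from 11.4, 9.26, 14.4 and 11.5 CPM to 22.1, 32.3, 27.3 and 27.5 CPM without overlap (log2 fold change 1.26, SE 0.19, adjusted p 3.10e-05). MELK was the kinase with the smallest difference, -0.48 (SE 0.25, adjusted p 0.161).

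In the chromosomal passenger complex 3 of 4 members fell (median -1.38), led by BIRC5 (-2.42, SE 0.46), and INCENP did not pass the test (-0.06, SE 0.17). In the checkpoint group 5 of 8 fell (median -1.87), led by BUB1 (-2.29, SE 0.36), which recruits checkpoint proteins to kinetochores. ESPL1, which rose in OIS, was at 3.04, 2.26, 2.54 and 1.96 CPM with DMSO and 2.49, 1.61, 2.04 and 1.91 CPM with bleomycin. These groups overlapped (log2 fold change -0.25, SE 0.22, adjusted p 0.429). Kinetochore genes fell in 5 of 10 members (median -1.45), with SPC25 the largest at -2.90 (SE 0.49) and ZWINT the smallest at -0.28 (SE 0.21, adjusted p 0.365). CCNA2 (adjusted p 0.0335), TTK (0.0209), NUF2 (0.0310) and ANLN (0.0144) each lost their call when single libraries were left out. For CCNA2 these were DMSO replicates 3 and 4 and bleomycin replicates 1 and 2 (0.148, 0.0684, 0.0961 and 0.109), and for TTK DMSO replicate 3 and bleomycin replicates 1 and 2 (0.0717, 0.0727 and 0.0598). For NUF2 they were DMSO replicates 2 and 3 and bleomycin replicates 1 and 2 (0.0525, 0.158, 0.0586 and 0.0791), and for ANLN DMSO replicate 3 (0.0638).

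Spindle motors fell in 7 of 10 members (median -1.90). KIF20A was at 10.2, 4.98, 7.01 and 6.54 CPM with DMSO and 1.13, 1.61, 0.268 and 1.36 CPM with bleomycin (log2 fold change -2.70, SE 0.34, adjusted p 4.05e-06), and PRC1, the bundler of the central spindle, had the smallest adjusted p of all members (-1.85, SE 0.18, adjusted p 1.48e-07). KIF23 stood at -0.13 (SE 0.28). Cytokinesis genes fell in 2 of 3 (median -0.69), ANLN by 1.17 (SE 0.35) on the log2 scale. Chromosome structure genes fell in 5 of 7 (median -1.69), and MKI67, at 4.91, 7.43, 7.72 and 6.97 CPM with DMSO, was at 0.188, 0.776, 0.429 and 1.81 CPM with bleomycin (log2 fold change -3.05, SE 0.50, adjusted p 7.26e-05). SMC2 did not differ in its mean (-0.002, SE 0.61), with libraries from 3.34 to 28.5 CPM in the bleomycin group.

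The fall was larger in OIS than after bleomycin for 16 members, and the response of ESPL1 was higher in OIS. This was tested as the difference of both responses in a fit of all 42 libraries, where 12.1% of 15299 genes were called lower and 8.14% higher, and 37 members were not called. With the GC and length correction 27 members were called in place of 17. The median difference of the members was -1.39, and 47 were below 0. KIF2C, a microtubule depolymerase that corrects attachments, fell from 8.03, 8.28 and 9.79 CPM to 0.176, 0.0666 and 0.193 CPM in OIS, and from 5.68, 3.48, 4.77 and 3.76 CPM to 0.752, 1.25, 0.376 and 1.31 CPM with bleomycin (difference -3.63, SE 0.51, adjusted p 2.33e-06). CCNB2 fell to 0.756 ± 0.187 CPM (SD, n = 3) in OIS and to 2.23 ± 0.437 CPM (SD, n = 4) with bleomycin (difference -2.60, SE 0.38, adjusted p 3.92e-06). ESPL1 gave a difference of 1.82 (SE 0.34, adjusted p 0.000161).

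The other members with a larger fall in OIS were MYBL2, FOXM1, CCNA2, PLK1, BIRC5, BUB1B, UBE2C, SPC25, TPX2, KIF4A, KIF20A, DLGAP5, NCAPH and MKI67, with differences from -0.74 in TPX2 to -5.49 in DLGAP5. For MYBL2, SPC25, KIF2C, KIF20A, DLGAP5, NCAPH and MKI67 the OIS side was at the floor, so that the fitted difference depends on the small count added by the fit and is no bound. Calls of UBE2C (adjusted p 0.0477), TPX2 (0.0349), FOXM1 (0.0138) and MKI67 (0.0132) depended on single libraries. FOXM1 lost its call without ER:RAS DMSO replicate 2 (0.0519) or bleomycin replicate 2 (0.0539), and MKI67 without bleomycin replicate 4 (0.0602). UBE2C, which adds ubiquitin for the anaphase-promoting complex, lost it in 12 omissions of 14 (0.0523 to 0.139), all but those of IMR90 DMSO replicate 1 and bleomycin replicate 1. TPX2 lost it in 9 omissions (0.0511 to 0.104), those of ER:RAS DMSO replicates 1 and 3, 4OHT replicates 2 and 3, IMR90 DMSO replicates 2, 3 and 4 and bleomycin replicates 2 and 3.

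The DMSO cultures from which both models started were compared as well. With the control shRNA, 46 of 54 members were higher in ER:RAS than in IMR90 cells (median log2 difference 0.58), where 49.1% of all genes were. Of the members 22 were higher at an unadjusted p under 0.05 (5.61% of all genes), and CCNB2 was called (0.222% of all genes called higher). CCNB2 was at 8.59, 8.41 and 9.69 CPM in ER:RAS cells and 5.44, 3.38, 4.16 and 4.69 CPM in IMR90 cells (log2 difference 1.03, SE 0.24, adjusted p 0.0463). The lines did not overlap, but the call of CCNB2 was lost without ER:RAS DMSO replicate 1, 2 or 3 (adjusted p 0.107, 0.145 and 0.211) and without IMR90 DMSO replicate 2, 3 or 4 (0.236, 0.134 and 0.128). The OIS response was thus measured from a DMSO level that was higher in 46 members, and the part of that level in the difference between models was not tested.

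The senescence response of the members was also present in cells with a COPB2 shRNA. In OIS with shRNA 1, 35 members were called lower (21.5% of all genes) with a median of -3.08 (-2.85 with members at their bound), and with shRNA 2 33 were (22% of all genes) with a median of -2.40 (-2.14). After bleomycin, 32 were called lower with shRNA 1 (17.8% of all genes, median -1.28) and 33 with shRNA 2 (18.3%, median -1.23). AURKA was called higher in all 4 contrasts, from 0.85 to 1.36 on the log2 scale. ESPL1 was called higher in OIS with shRNA 1 (0.99, SE 0.26, adjusted p 0.00766) and shRNA 2 (1.67, SE 0.27, adjusted p 0.000166). With shRNA 2 ESPL1 was called higher after bleomycin too (0.71, SE 0.22, adjusted p 0.0122), as was PTTG1 (0.85, SE 0.25, adjusted p 0.0100). There, PTTG1 was at 7.13, 16.1, 5.78 and 6.62 CPM with bleomycin, and replicate 2 stood apart from the others.

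**Figure D4:**
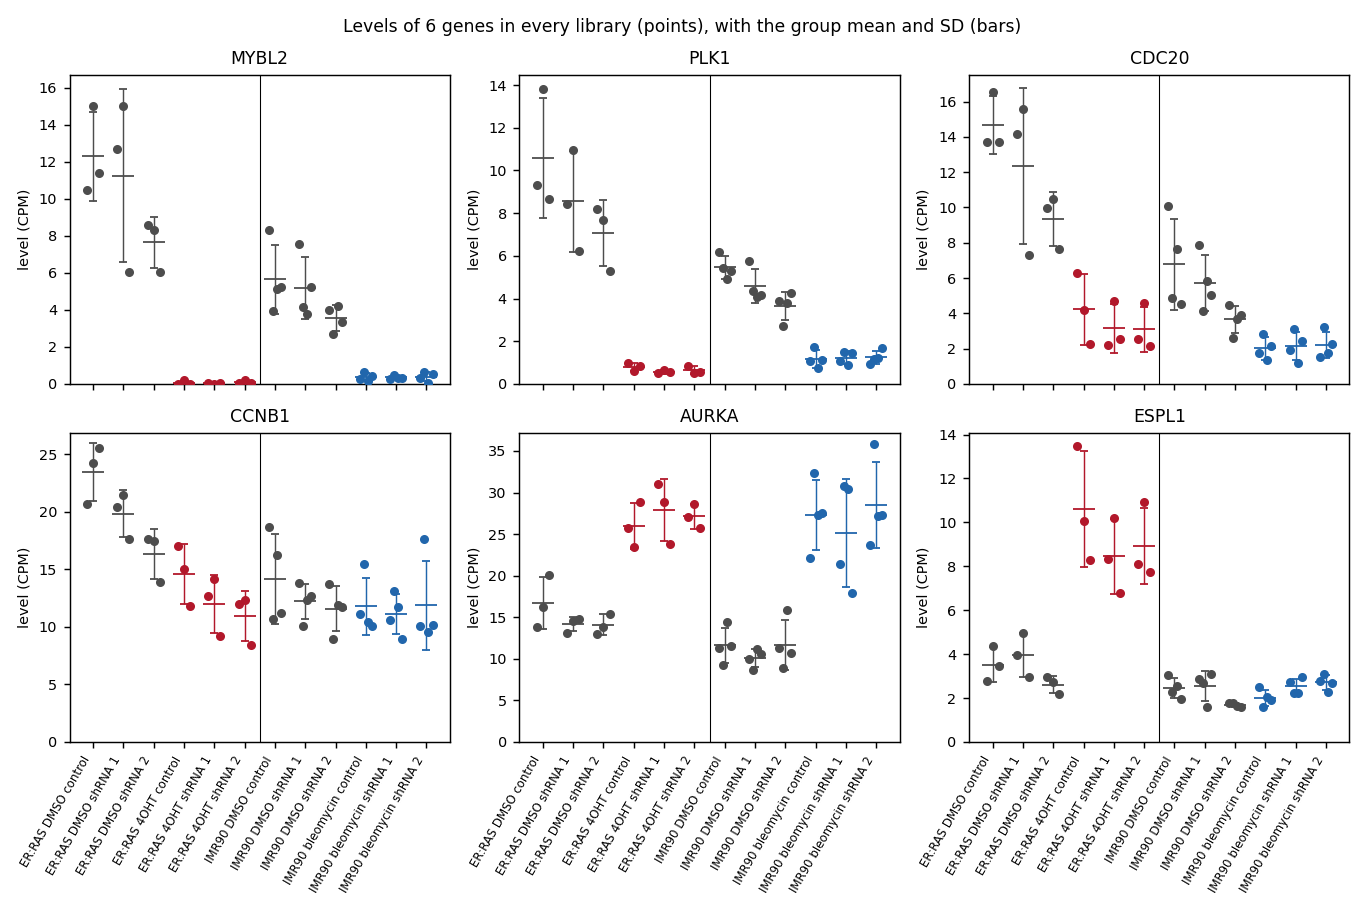
Level in CPM (vertical axis) of MYBL2, PLK1, CDC20, CCNB1, AURKA and ESPL1 in every library, by line, treatment and shRNA (horizontal axis), where points are libraries and bars the group mean and SD (n = 3 or 4). MYBL2, PLK1 and CDC20 are low in all 4OHT and bleomycin groups, CCNB1 overlaps between DMSO and bleomycin, AURKA is high in both senescent states, and ESPL1 is high in the 4OHT groups.

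COPB2 depletion in cells that were not senescent was examined next, for these members chosen with earlier results known. In DMSO-treated cells the members lay mostly below their control level in both lines, more so with shRNA 2, yet no member was called in either line by the edgeR fit. Both shRNAs share their control libraries, so values are given side by side. In ER:RAS cells, 44 members were below 0 with shRNA 1 (median -0.26) and 53 with shRNA 2 (median -0.68), where 49.8% and 51% of all genes were. In IMR90 cells, 41 were below 0 with shRNA 1 (median -0.11) and 48 with shRNA 2 (median -0.29), where 52.4% and 52.5% of all genes were. Members of 1 library rise and fall together, so that these counts are not independent observations of the treatment.

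Set against the spread of all genes, the members with shRNA 2 lay low and those with shRNA 1 less so. In ER:RAS cells with shRNA 2 the 10th to 90th percentiles of all genes ran from -0.40 to 0.26, and those of the members from -1.44 to -0.35. With shRNA 1 these ranges were -0.31 to 0.30 and -0.58 to 0.09. In IMR90 cells they were -0.23 to 0.22 and -0.67 to -0.005 with shRNA 2, and -0.21 to 0.22 and -0.34 to 0.08 with shRNA 1. Against the same-numbered control, ER:RAS shRNA 2 replicates 1, 2 and 3 had 48, 37 and 53 members lower (medians -0.78, -0.32 and -0.66). Replicate 1, the library with the lowest total count (13148194), held members down to -4.31, and replicate 2 held members up to 1.41. IMR90 shRNA 1 replicates 1 to 4 had 27, 32, 37 and 42 members lower (medians 0.02, -0.04, -0.15 and -0.17). The summed level of the members was 550 ± 117, 490 ± 89.5 and 384 ± 52.9 CPM in ER:RAS cells with the control shRNA, shRNA 1 and shRNA 2 (SD, n = 3), and 428 ± 68.9, 401 ± 62.3 and 362 ± 49.0 CPM in IMR90 cells (SD, n = 4). These sums overlapped between groups apart from ER:RAS shRNA 2, whose highest library, at 445 CPM, was under the lowest control library, at 457 CPM.

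By test, with shRNA 1 in ER:RAS cells 0 members were called (0.00699% of all genes), 1 had an unadjusted p under 0.05 (0.811% of all genes) and 3 did not overlap with the control, lower (1.77% of all genes). With shRNA 2 these counts were 0 (0.00699%), 5 (0.93%) and 14 (1.31%). The count at an unadjusted p under 0.05 with shRNA 2 moved with the fit. It was 21 with the GC and length correction (2.85% of all genes), 30 with the replicate block (2.99%) and 36 with both (7.04%). With the block in a fit of the compared libraries it was 9 (0.863%). It was 3 with DESeq2 size factors (0.909%) and 1 without the libraries of number 2 (0.563%). In each of these fits 0 members were called. In IMR90 cells the counts called, at an unadjusted p under 0.05 and without overlap were 0 (0.00676%), 0 (1.12%) and 0 (0.731%) with shRNA 1. With shRNA 2 they were 0 (0.00676%), 7 (1.12%) and 6 (0.893%). For the mean of both shRNAs, ER:RAS cells had 0 members called (0.014% of all genes), 3 with an unadjusted p under 0.05 (0.958%) and 52 below 0 (50.4%), with a median of -0.46. IMR90 cells had 0 (0.00676%), 3 (1.13%) and 49 (53.3%), with a median of -0.21. With the replicate block, fitted to the compared IMR90 libraries alone, the counts at an unadjusted p under 0.05 were 20 for both shRNAs (16.5% of all genes), 4 for shRNA 1 (13.5%) and 19 for shRNA 2 (12.4%). In fits of all IMR90 libraries both shRNAs together gave 6 with the block (2.36%). They gave 7 with the GC and length correction (2.59%) and 9 with both (4.50%). In ER:RAS cells, for both shRNAs together, the counts were 9 with the GC and length correction (2.71%), 20 with the replicate block (2.93%) and 27 with both (7.00%). They were 2 with DESeq2 size factors (0.867%) and 0 without the libraries of number 2 (0.660%). DESeq2 called 0 members in each of these 6 contrasts.

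In ER:RAS cells the 5 members with the smallest unadjusted p for both shRNAs together were PTTG1, KIF4A, CCNB1, BIRC5 and PLK1. CCNB1 was at 20.7, 24.2 and 25.5 CPM with the control shRNA, 20.4, 21.5 and 17.6 CPM with shRNA 1 and 17.7, 17.5 and 13.9 CPM with shRNA 2. All shRNA 2 libraries were under the control libraries, those of shRNA 1 overlapped them, and the mean log2 difference was -0.41 (SE 0.18, unadjusted p 0.0393, adjusted p 0.999986). KIF4A, a chromosome-bound kinesin, was at 5.92, 4.55 and 6.89 CPM, then 5.23, 3.94 and 5.35 CPM, then 3.52, 2.91 and 3.69 CPM (-0.54, SE 0.22, unadjusted p 0.0285). PTTG1 was at 9.98, 12.1 and 16.5 CPM, then 8.03, 9.26 and 8.004 CPM, then 9.65, 8.31 and 6.59 CPM (-0.66, SE 0.25, unadjusted p 0.0185). Neither shRNA overlapped the control for PTTG1. PLK1 stood at -0.46 (SE 0.24) and BIRC5 at -0.54 (SE 0.28). INCENP, the scaffold of the passenger complex, at 0.004 (SE 0.17), and NCAPD2, a condensin subunit, at 0.07 (SE 0.19), were the members not below 0.

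In IMR90 cells they were PLK1, CDC20, PRC1, KIF20A and KIF2C. PLK1 was at 6.20, 5.45, 4.93 and 5.29 CPM with the control shRNA, 5.77, 4.35, 4.08 and 4.18 CPM with shRNA 1 and 3.89, 2.73, 3.79 and 4.25 CPM with shRNA 2 (mean log2 difference -0.41, SE 0.19, unadjusted p 0.0392). CDC20 was at 10.1, 4.89, 7.62 and 4.52 CPM, then 7.85, 4.12, 5.81 and 5.04 CPM, then 4.49, 2.63, 3.65 and 3.90 CPM (-0.56, SE 0.26, unadjusted p 0.0393). All shRNA 2 libraries of both genes lay under all control libraries, while those of shRNA 1 overlapped them. PRC1 was at 11.2, 11.5, 13.97 and 11.7 CPM, then 9.62, 9.76, 14.1 and 10.6 CPM, then 6.88, 8.50, 9.84 and 8.97 CPM (-0.31, SE 0.15, unadjusted p 0.0424). KIF20A stood at -0.53 (SE 0.26) and KIF2C at -0.44 (SE 0.23). Same-numbered IMR90 knockdown libraries deviated together by the criterion given below, but pairing by number is uncertain. In DMSO, libraries of different number reached r 0.355 with shRNA 1 and 0.253 with shRNA 2, above the lowest same-numbered r of each. With the replicate block, fitted to the DMSO libraries alone, 3 members were called lower: CDC20 (-0.53, SE 0.12, adjusted p 0.0288), KIF20A (-0.49, SE 0.12, adjusted p 0.0468) and PRC1 (-0.31, SE 0.08, adjusted p 0.0479). In that fit 356 of 13827 genes were called (2.57%), and with the block in a fit of all IMR90 libraries 0 members were.

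Compared library by library with the control of the same replicate number, 16 members were lower in all 6 pairs of ER:RAS cells (2.72% of all genes tested), and 5 in all 8 pairs of IMR90 cells (5.08%). Each control library enters 2 of these pairs, one for each shRNA, so that the pairs are not independent. The first were CCNB1, CCNA2, PLK1, AURKA, AURKB, BIRC5, CDCA8, BUB1B, PTTG1, CENPA, SPC25, TPX2, KIF2C, KIF4A, KIF23 and TOP2A, and the second PLK1, SPC25, TPX2, KIF2C and KIF20A. No member was higher in all pairs of either line. Among the ER:RAS libraries of these knockdown contrasts, not every same-numbered pair deviated together, so the number does not pair them there. Without all ER:RAS libraries of number 2, 50 members were below 0 for both shRNAs together (median -0.51), and with the GC and length correction 54 were (median -0.49), again with 0 called. In IMR90 cells 50 were below 0 with that correction (median -0.18, 0 called).

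**Figure D5:**
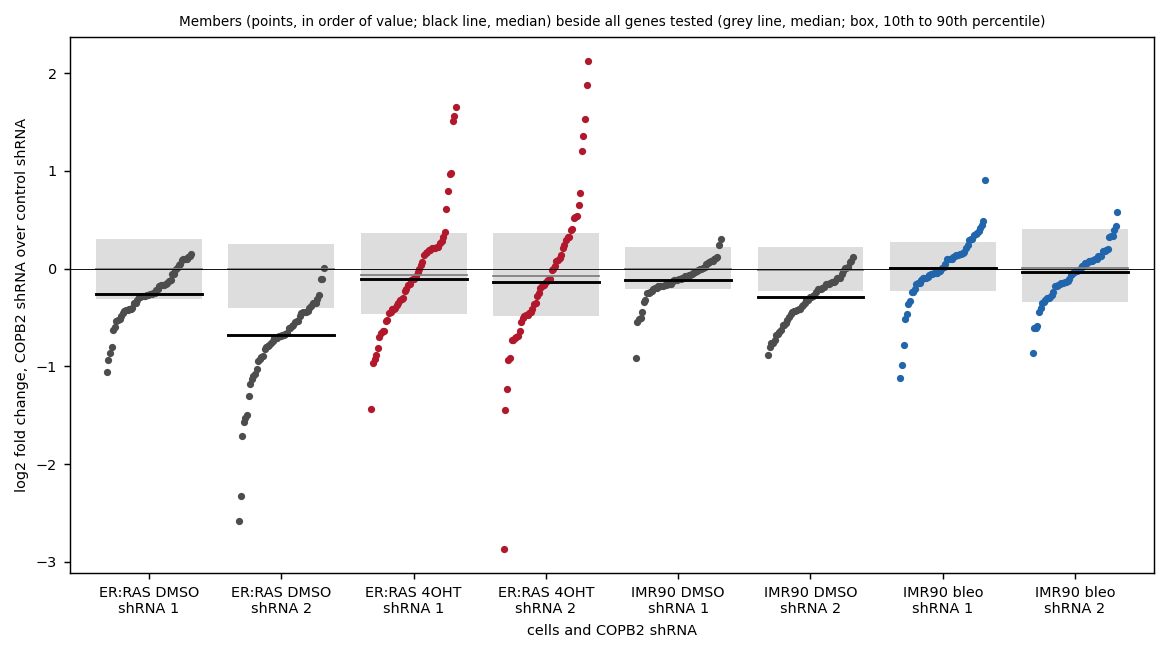
Log2 fold change of each of the 54 members (points, in order of value) after COPB2 shRNA 1 or shRNA 2 against the control shRNA (vertical axis), by line and treatment (horizontal axis), where a black line is the median of the members and a grey box the 10th to 90th percentile of all genes tested. The medians are -0.26 and -0.68 in ER:RAS cells and -0.11 and -0.29 in IMR90 cells with DMSO, and between -0.14 and 0.01 in senescent cells. Points of members at the floor in OIS are fitted values.

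In senescent cells the members showed no common shift after COPB2 knockdown. For both shRNAs together 32 of 54 were below 0 in OIS (median -0.10, against -0.08 over all genes) and 32 after bleomycin (median -0.02, against 0.02). In OIS 9 members with shRNA 1 and 8 with shRNA 2 were at the floor in both groups compared. A further 5 and 6 were at the floor in a single group, so a fall could not be measured for all members. In OIS 0 members were called by edgeR and by DESeq2 (0.266% of all genes by edgeR), and 6 had an unadjusted p under 0.05 (5.14%). After bleomycin 0 were called by either (0.0474%), and 0 had an unadjusted p under 0.05 (2.93%).

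Of the 6 members in OIS, 5 were higher with COPB2 shRNA, among them spindle genes that OIS had nearly emptied. KIF2C was at 0.176, 0.0666 and 0.193 CPM with the control shRNA, 0.424, 0.259 and 0.722 CPM with shRNA 1 and 0.616, 0.707 and 0.668 CPM with shRNA 2. These are 1 to 3 reads per library against 4 to 12, and the groups did not overlap (log2 fold change 1.88, SE 0.39, adjusted p 0.0763). Without 4OHT shRNA 1 replicate 2 KIF2C was called (2.04, adjusted p 0.0352). KIF20A was at 0.176, 0.200 and 0.128 CPM, then 0.495, 0.323 and 0.661 CPM, then 0.385, 0.321 and 0.613 CPM (1.43, SE 0.37, adjusted p 0.366). TPX2, at 9.09, 6.60 and 6.87 CPM with the control shRNA, was at 12.4, 10.8 and 11.5 CPM with shRNA 1 and 9.78, 9.19 and 11.4 CPM with shRNA 2 (0.51, SE 0.18, adjusted p 0.623). All libraries with a COPB2 shRNA were above the control libraries for these 3 genes, and they remained under every DMSO library of the line. In either direction, groups without overlap were found for 3 of the 54 members and for 588 of the 14297 genes tested. BIRC5 stood at 0.88 (SE 0.38), NCAPH at 1.43 (SE 0.62) and PTTG1 at -0.62 (SE 0.25).

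Whether the knockdown effect differed between states was tested as an interaction for both shRNAs together. In ER:RAS cells 44 members had a higher value in OIS than with DMSO (median 0.33, against -0.06 over all genes). Of the members 5 had an unadjusted p under 0.05 (2.06% of all genes) and 0 were called (0.014%). Members at the floor in OIS could show no further fall there, so these values do not measure all members alike. SPC25, without a read in OIS, had an estimate of 0.50 with an SE of 675. The smallest p was that of KIF2C (2.30, SE 0.47, unadjusted p 0.000181, adjusted p 0.199). In IMR90 cells 42 members were higher after bleomycin (median 0.17, against 0.025 over all genes). There 2 had an unadjusted p under 0.05, ESPL1 (0.62, SE 0.26) and BUB1B (0.72, SE 0.34), against 1.04% of all genes. In this line 0 were called, as among all genes (0%). DESeq2 called 0 members in both.

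Genes of the same processes outside the members behaved alike in part. Of 46 other mitotic genes, 23 fell and 2 rose in OIS (median -1.20), led by KIF18B (-6.29), ASPM (-6.16) and SKA1 (-5.56) on the lower side and CIT (2.02) and CDC25A (0.84) on the higher, fitted values on the log2 scale. After bleomycin 22 fell and 2 rose (median -0.91), led by TROAP (-3.005), SKA1 (-2.60) and SGO1 (-2.45), with CDC25A and CENPN at 0.50 each. The 24 genes of the anaphase-promoting complex core and cohesin, which act in mitosis but are expressed through the cycle, had medians of -0.07 and -0.06, with ANAPC5 (0.64) called in OIS and PDS5B (-1.04), RAD21 (-0.80) and CDC23 (-0.37) called after bleomycin. Among 18 genes of the MuvB core, pocket proteins and E2F factors, 4 fell and 2 rose in OIS (median -0.17), shares of 18 genes near those of all genes (20.2% lower and 15.5% higher). E2F2 (-5.39), E2F8 (-3.86) and TFDP2 (-1.57) were lower, while E2F7 (5.27), a repressor of the E2F family, and E2F1 (1.11) were higher. After bleomycin 3 of 17 tested fell (15.8% of all genes) and 2 rose (15.4%). Those lower were TFDP2 (-1.19), RBL2 (-0.67) and RBBP4 (-0.53), and those higher E2F7 (2.61) and E2F3 (0.47). In DMSO-treated cells with both COPB2 shRNAs 0 genes of these 3 lists were called by edgeR in either line, and the other mitotic genes had medians of -0.37 in ER:RAS and -0.08 in IMR90 cells.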

How the data were processed

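The deposited file holds raw read counts per gene for 42 poly(A) libraries. Per the study's methods, the authors counted directional single-end reads per Ensembl gene with HTSeq after Tophat alignment to hg19, while the submitters' processing notes name STAR 2.7.8a, DRAGEN, DESeq2 1.32.0 and hg38, so the build is uncertain and gene positions are GRCh37 annotation. Of all rows, 3476 symbols had no count. Counts were fitted per line, and across both lines for differences between lines, with the edgeR 4.0.16 quasi-likelihood test (R 4.3.3, TMM scaling, filter on low counts). P-values were adjusted by Benjamini-Hochberg over all genes tested, with calls at 0.05. A prior count of 2 entered the log2 CPM values of single libraries. Fold changes came from the fit with its default prior count. Members with at most 3 counts in every library of a group received a bound computed from 3 counts per library. The code was tested on simulated data. The 54 members and the lists were chosen with earlier results of these data known. Named were the members with the largest and smallest change per role, the 5 smallest p per knockdown contrast, called members, fixed key genes, and up to 3 called genes per direction of the other lists. Members outside that rule were chosen after their values were seen. Alternatives were DESeq2 1.42.0, its size factors, no filter, fits of the compared libraries, the replicate block and leaving out single libraries, and, chosen after seeing the data, a GC and length correction (spline with 4 degrees of freedom) and leaving out number 2 of ER:RAS cells. Same-numbered libraries deviated together (every r over 0.1) for IMR90 knockdown (0.100 to 0.805) and for OIS with a COPB2 shRNA (0.463 to 0.795), and not for the other contrasts. Libraries of different number reached r 0.355 and 0.556 in these contrasts, above the lowest same-numbered values. Counting error sets the precision of low members: 3 counts stood for 0.113 to 0.265 CPM.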

Additional observations from a re-analysis of the deposited data

Results flagged for a closer look

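In groups of 4, 23 member levels of 324 gene-by-group sets stood apart from the rest of their group by Dixon's criterion, where chance flags about 1 in 20 groups. All are IMR90 libraries, since groups of 3 were not examined, and values are in CPM. In DMSO with the control shRNA these were NEK2 at 1.88 in replicate 3, and KNTC1 at 4.04 and NUSAP1 at 3.28 in replicate 1. With DMSO and shRNA 1 they were PLK1 at 5.77, BUB1 at 2.35 and CENPM at 1.87 in replicate 1 and DLGAP5 at 5.497 in replicate 3. With DMSO and shRNA 2 they were MAD2L1 at 3.65 in replicate 1, AURKB at 1.34 in replicate 2 and TTK at 3.28 in replicate 3. With bleomycin and the control shRNA they were CDK1 at 1.21 and PBK at 0.753 in replicate 4, and NUF2 at 0 and NCAPH at 2.03 in replicate 2. With bleomycin and shRNA 1 they were NUSAP1 at 1.27 in replicate 2, and KIF4A at 0.498 and ANLN at 10.2 in replicate 3. With bleomycin and shRNA 2 they were CCNB1 at 17.7, PTTG1 at 16.1, ZWINT at 2.89 and KIF2C at 1.54 in replicate 2, and NDC80 at 0.793 and DLGAP5 at 1.49 in replicate 4. Replicate 2 of this last group held 4 of the 23 values, the most of any library.

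The response to 4OHT differed from that to bleomycin, in a test of the difference itself, for 17 members. The log2 differences were -5.49 for DLGAP5, -5.08 for SPC25, -3.63 for KIF2C, -3.54 for MKI67, -3.51 for NCAPH, -3.48 for MYBL2, -3.40 for BIRC5, -3.39 for KIF20A, -2.95 for CCNA2 and -2.60 for CCNB2. They were -2.40 for KIF4A, -2.24 for BUB1B, -1.73 for UBE2C, -1.54 for PLK1, -1.43 for FOXM1 and -0.74 for TPX2, and 1.82 for ESPL1. For members at the floor in OIS these are fitted values and no bounds.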

How the results depend on the processing

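No called result changed direction, and 366 counts of called members stayed within 1.5 times their value. These include counts of 0 that stayed at 0. Beyond that range 9 counts were higher and 8 lower. With the replicate block 44 members were called lower in OIS and 38 after bleomycin, against 39 and 35, and 33 in each with the block where the fit held the compared libraries alone. The block moved a count by over 1.5 times where it called 3 members instead of 0 for IMR90 knockdown in DMSO (compared libraries alone), and, with the GC and length correction, 1 instead of 0 for OIS with shRNA 2, for OIS with both shRNAs (KIF2C, 1.87, adjusted p 0.0239) and for bleomycin with shRNA 2. Leaving out single libraries gave 0 to 1 members for knockdown in OIS with both shRNAs. The difference between models had 17 members and 27 with the GC and length correction. For the lines in DMSO, 1 member was called, 0 without a filter on low counts, 7 by DESeq2, 0 with the compared libraries alone, 3 with the GC and length correction, and 0 to 5 when single libraries were left out (5 without IMR90 DMSO replicate 1). Of single members, 99 values lost their call and 5 gained one under an alternative. The median of the members in OIS moved from -3.08 to -2.38 with shRNA 1 without DMSO replicate 3, and from -2.40 to -1.69 with shRNA 2 without DMSO replicate 3. For knockdown by shRNA 2 in OIS it moved from -0.14 to 0.16 without 4OHT control replicate 3. The cause was not tested. Depth limited members near 3 counts, for which OIS gives a bound only.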
